A study of Rattus norvegicus with 6 samples.

Results

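Serine protease inhibitors that act outside blood coagulation were examined as a group of 9 named genes. These were Serpina1, Serpina3n, Serpina4, Serpina11, Serpina12, Serpinb1a, Serpinb9, Serpinf1 and Slpi, and a gene was taken as a member when its symbol in the table of FPKM values equalled one of these names. The table held 19616 genes, and 8 of the 9 names had a row. No row carries the symbol Serpina3n. Livers of male SD rats were sequenced, with 1 library of rRNA-depleted total RNA per rat. In the FL group, 3 rats (FL2, FL5 and FL12) had received intraperitoneal CCl4, a solvent that injures hepatocytes, mixed with olive oil at 2 mL/kg, with 2 injections per week over 5 weeks. In the CL group, 3 rats (CL5, CL6 and CL7) had received olive oil alone in the same volume. The age of the rats is not given in the sources used here, and the model is a toxin-induced fibrosis read at a single time.

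The values were FPKM, in which the fragments of a gene are scaled by transcript length and library size. Where 3 values follow each other for a group, they stand in the order CL5, CL6, CL7 or FL2, FL5, FL12. FPKM summed to 309425, 340467 and 315259 in the CL rats and to 309226, 272350 and 272110 in the FL rats. Among 114 U6 genes, the most frequent FPKM above 0 (the lowest where tied) ran from 0.21 in CL5 to 0.32 in CL6. Relative depth was read from it as if it stood for equally many reads in each rat, which was not tested. With CL5 at 1, the depth was 0.656 in CL6, 0.84 in CL7, 0.677 in FL2, 0.75 in FL5 and 0.677 in FL12. The paper gives a lower limit for its clean reads but no number for each rat, so the absolute depth of a library is unknown and no counting interval accompanies a value. The liver label was checked against 7 hepatocyte markers, all of which were present in every rat. Alb, the gene of serum albumin, was the most abundant with a mean of 28538 FPKM, and the list summed to 42076, 39746 and 40256 FPKM in the CL rats and to 30302, 33453 and 31622 FPKM in the FL rats. In bulk liver RNA, fewer cells of a type and less RNA per cell cannot be told apart.

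Most serpins inhibit a serine protease by offering it a reactive loop. Cleavage of that loop traps the enzyme in a covalent complex, which is then cleared through receptors of the LDL receptor family. Clade A serpins such as alpha-1 antitrypsin are mainly secreted by hepatocytes into plasma, whereas clade B serpins stay inside cells, many of them leukocytes, and protect those cells from their own proteases. Slpi belongs to a different family, the whey acidic protein domain inhibitors, and Serpinf1 keeps the serpin fold without acting as a protease inhibitor.

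Of the 7 members that could be tested, 1 rose and 1 fell in the FL group, and the other 5 did not pass the test. Serpinb1a rose 4.41-fold from a low level, and Serpina4 fell to 0.486 of its CL level (ratios of mean FPKM, n = 3 rats each). A call needed an adjusted p under 0.05 in limma and a fold change of at least 2 on the log2(FPKM + 0.1) scale, which understates the change of low genes. Over the 14864 genes tested, 9.29% were called higher and 0.935% lower in the FL group, so 1 member higher lies near the background, and the fall is a result about Serpina4 alone. The groups did not overlap in 2 of the 7 tested members, against 40.5% of all genes tested, which sets the members apart in neither direction. The 2 members were the same ones, Serpinb1a and Serpina4. The balance of all calls was 1381 higher to 139 lower, and with quantile normalization it was 453 to 231. All values given are unscaled FPKM, in which the median log2 fold change of all genes tested was 0.29. That median became 0.08 with median scaling, -0.04 with quantile normalization and 0.48 with each rat scaled to an equal sum. The median over the 7 tested members was 0.03, with 4 of the 7 above 0, a count that was 3 with median scaling and 6 with scaling to an equal sum. This median was -0.20 with median scaling, 0.20 with scaling to an equal sum, -0.03 without FL2 and 0.23 without FL5.

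**Figure D1:**
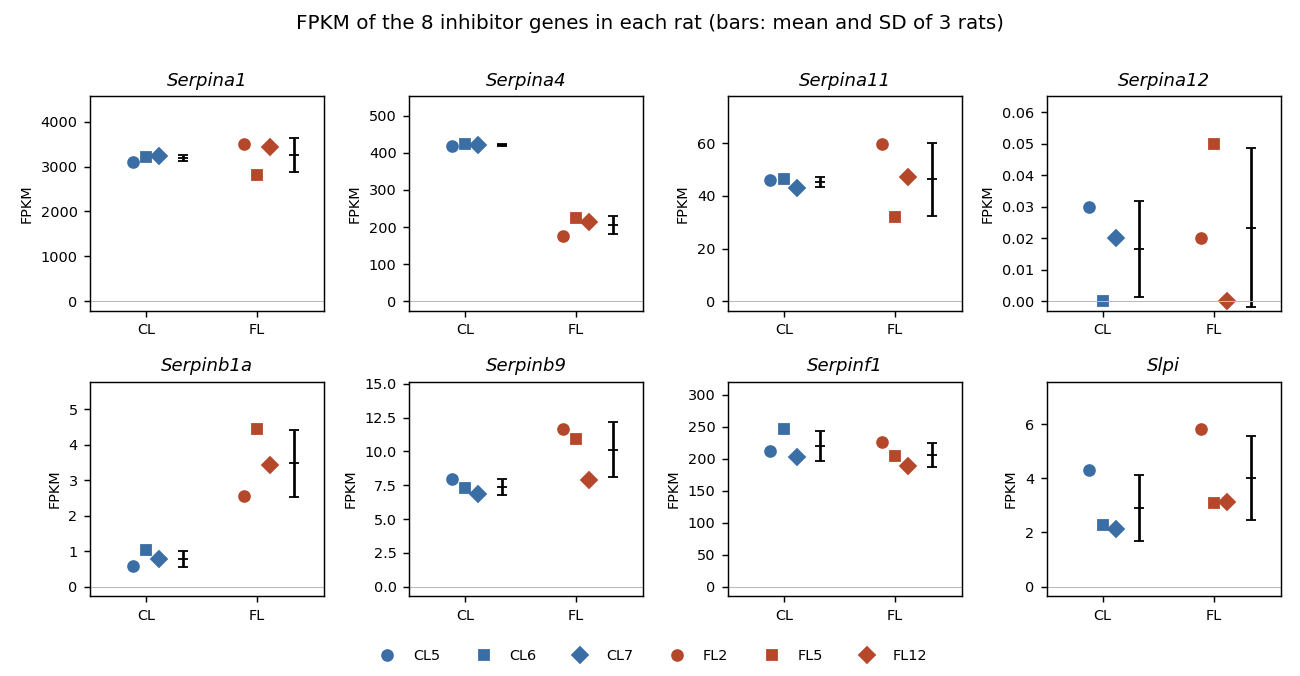
FPKM of each of the 8 genes with a row (vertical axes, a scale of its own per panel) in the 3 CL rats (blue) and the 3 FL rats (red), 1 symbol per rat, with black bars for the mean and SD of 3 rats. Serpina4 in the FL rats, at 177 to 224 FPKM, lies below all CL rats, Serpinb1a, at 2.55 to 4.44 FPKM, lies above them, and the groups overlap in the other panels.

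Levels per length of transcript spanned a wide range among the members. In the CL group, the order by mean FPKM (± SD, n = 3) was Serpina1 at 3185 ± 67.0, Serpina4 at 421 ± 3.32, Serpinf1 at 221 ± 23.3, Serpina11 at 45.2 ± 1.90, Serpinb9 at 7.37 ± 0.561, Slpi at 2.90 ± 1.21, Serpinb1a at 0.787 ± 0.225 and Serpina12 at 0.0167 ± 0.0153. Each neighbour in that order stood clear of the next by more than the spread between rats. In the FL group Serpinf1 at 206 ± 19.2 and Serpina4 at 204 ± 24.5 FPKM no longer differed beyond their spread. The same held for Slpi at 4.01 ± 1.57 and Serpinb1a at 3.47 ± 0.946 FPKM. The remaining order of the FL means was as in the CL group.

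Serpina1 (ENSRNOG00000032669, chromosome 6) encodes alpha-1 antitrypsin, the main plasma inhibitor of neutrophil elastase. It read 3108 FPKM in CL5, 3219 in CL6 and 3229 in CL7, and 3510 FPKM in FL2, 2815 in FL5 and 3445 in FL12. FL5 lay below the CL rats and the other FL rats above them, so the groups overlapped and the FL group spread more widely. The log2 fold change was 0.03 with a standard error (SE) of 0.36 (95% interval -0.79 to 0.85, adjusted p = 0.967), and its sign was not fixed. It was 0.38 with quantile normalization, 0.20 with scaling to an equal sum and 0.13 without FL5, the groups not overlapping in the last 2 of these settings, against -0.20 with median scaling, -0.03 without FL2 and -0.02 without FL12. The adjusted p was at least 0.519 under all 15 alternatives. The SE is moderated toward that of genes of similar level, and the SD over the 3 CL rats was only 67.0 FPKM. The gene ranked 10 by FPKM in each CL library and 11, 6 and 5 in the FL rats. Its share of all FPKM was at most 1.02% (CL7) and at least 0.945% (CL6) in the CL rats, and it was 1.13%, 1.03% and 1.27% in the FL rats.

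Serpina4 (ENSRNOG00000009788, chromosome 6) encodes the serpin known in humans as kallistatin, a plasma protein that binds tissue kallikrein. The CL rats lay within a narrow band, with 418 FPKM in CL5, 425 in CL6 and 419.9 in CL7. The FL rats read 177 FPKM in FL2, 224 in FL5 and 213 in FL12. All 3 FL rats were below all CL rats, FL2 the lowest. The log2 fold change was -1.05 with an SE of 0.16 (95% interval -1.42 to -0.68, adjusted p = 0.00634 in limma, lower in 3 of 3 FL rats). Over 15 alternatives the adjusted p ran from 0.00430 to 0.0341 and the log2 fold change from -1.27 to -0.87. The fold change, which was close to the limit of 2, fell short of it without FL2 (log2 -0.95), with quantile normalization (log2 -0.89) and with scaling to an equal sum (log2 -0.87).

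Serpina11 (ENSRNOG00000011141, chromosome 6) encodes a further secreted clade A serpin of liver whose target is poorly known. Its values were 46.1 FPKM in CL5, 46.5 in CL6 and 43.1 in CL7, against 59.8 FPKM in FL2, 31.8 in FL5 and 47.0 in FL12. The CL values lay close together, while FL2 was the highest and FL5 the lowest of the 6 rats. The log2 fold change of -0.02 (SE 0.21, 95% interval -0.51 to 0.48, adjusted p = 0.964) turned positive with scaling to an equal sum (0.16), without FL5 (0.23) and, barely, without CL6 (0.0044).

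Serpina12 (ENSRNOG00000042634, chromosome 6) encodes vaspin, an inhibitor of kallikrein 7 known from adipose tissue. It was listed at 0.03, 0 and 0.02 FPKM in the CL rats and at 0.02, 0.05 and 0 FPKM in the FL rats. Its mean over the 6 rats was under the 0.1 FPKM that a gene needed for the test, so no fold change is given.

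Serpinf1 (ENSRNOG00000003172, chromosome 10) encodes pigment epithelium-derived factor, a secreted protein that restrains blood vessel growth. FPKM were 213 in CL5, 247 in CL6 and 202 in CL7, and 226 in FL2, 204 in FL5 and 188 in FL12. Both groups covered much of the same range, with FL12 the lowest rat and CL6 the highest. The log2 fold change was -0.10 with an SE of 0.15 (95% interval -0.45 to 0.26, adjusted p = 0.679). It was 0.08 with scaling to an equal sum and -0.32 with median scaling, where the groups did not overlap (adjusted p = 0.229, range 0.229 to 0.994 over 15 alternatives).

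The ratio of 2 genes within a rat does not change when all values of a rat are scaled by 1 factor, though quantile normalization can change it. Among Serpina1, Serpina4, Serpina11, Serpinf1 and Alb, 5 such ratios of FPKM were chosen after the values were seen. With 3 rats against 3, the exact two-sided permutation test cannot go below p = 0.1. Serpina4 stood at 0.135, 0.132 and 0.130 of Serpina1 in the CL rats, and at 0.0504, 0.0794 and 0.0618 in the FL rats. This log2 difference of -1.07 had an exact p of 0.1 (0.167 adjusted over the 5 ratios), and the groups did not overlap. In unscaled FPKM, Alb was lower in each FL rat than in each CL rat without passing the test (log2 fold change -0.38, adjusted p = 0.804). Its groups overlapped with scaling to an equal sum (log2 fold change -0.20), and its direction turned with quantile normalization, to 0.49, which is above the 0.38 of Serpina1 in that setting. Relative to Alb in unscaled FPKM, Serpina4 was lower by a log2 difference of -0.67 (exact p = 0.1, adjusted 0.167). Serpina1 to Alb was higher by 0.40 (exact p = 0.1, adjusted 0.167), with 0.0931, 0.102 and 0.101 in the CL rats and 0.145, 0.112 and 0.137 in the FL rats. Serpinf1 to Alb differed by 0.28 (exact p = 0.2, adjusted 0.25) and Serpina11 to Serpina1 by -0.04 (exact p = 0.8, adjusted 0.8), both with overlap.

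The clade A members lie in a cluster of serpin genes on chromosome 6. In RefSeq's rat assembly GRCr8, 19 genes with clade A names were ordered by start on that chromosome, without a check for other genes between them. Serpina1, Serpina11, Serpina12 and Serpina4 are among the 19, as is the pseudogene Serpina3bl-ps1, and Serpina3n is the last. Of the 19, 13 had a row in the table and 8 could be tested, 3 of them members. Only Serpina4 was called among the 8, and 2 of the 8, Serpina4 and Serpina3c, had groups without overlap. Serpina3c, the most abundant neighbour, had 2919, 2421 and 2685 FPKM in the CL rats, against 1759, 1436 and 1461 FPKM in the FL rats. It was lower in 3 of 3 FL rats without passing the test (log2 fold change -0.79, SE 0.30, adjusted p = 0.102). The gene that RefSeq names Serpina3l, listed as LOC299282, split the FL group, with 907 FPKM in FL2 against 361 in FL5 and 373 in FL12. The CL rats had 789.8, 745 and 751 FPKM. Its log2 fold change of -0.62 (adjusted p = 0.250) became -1.05 without FL2 (adjusted p = 0.00662), which passes both limits, while 9 alternatives gave adjusted p-values of 0.00662 to 0.535. The Serpina3 genes are close copies of each other, and the authors counted uniquely mapped reads, so the FPKM of each copy are uncertain. These neighbours were singled out after their values were seen.

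**Figure D2:**
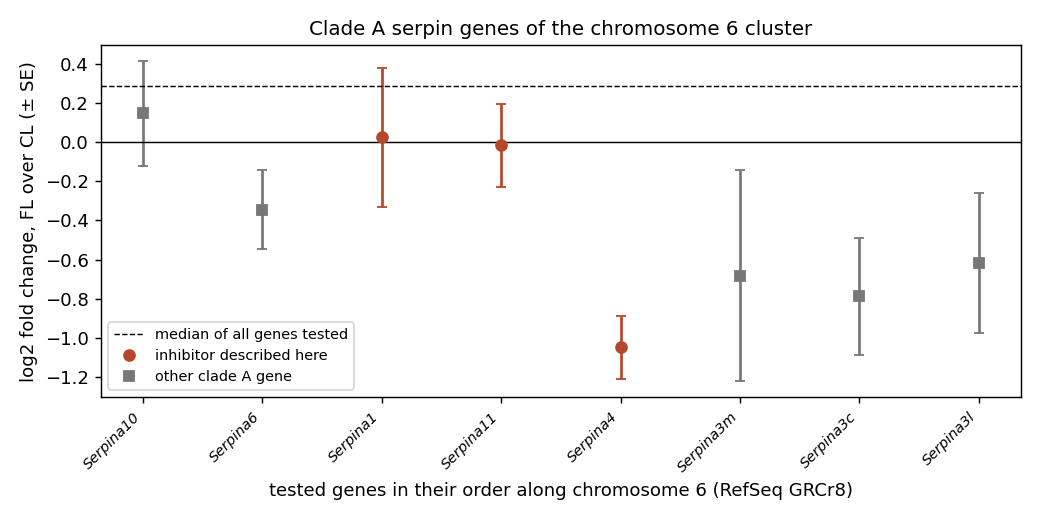
Log2 fold change of the FL over the CL group (vertical axis, ± SE from limma, 3 rats each) for the 8 tested clade A serpin genes, in their order along chromosome 6 in GRCr8. Circles are the 3 members and squares their neighbours, the dashed line is the median of all genes tested (0.29), and Serpina4 at -1.05 is the lowest point.

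Among the clade B members, which act inside cells, Serpinb1a (ENSRNOG00000016581, chromosome 17) encodes an inhibitor of neutrophil elastase, cathepsin G and proteinase 3 that is abundant in myeloid cells. It read 0.57 FPKM in CL5, 1.02 in CL6 and 0.77 in CL7, and 2.55 FPKM in FL2, 4.44 in FL5 and 3.42 in FL12. The lowest FL rat, FL2, was above the highest CL rat, CL6. The ratio of the group means was 4.41, and the log2 fold change was 2.01 with an SE of 0.27 (95% interval 1.39 to 2.63, adjusted p = 0.00482 in limma, higher in 3 of 3 FL rats). The call was made under all 15 alternatives, with a log2 fold change of 1.31 to 2.28 and an adjusted p of 0.00268 to 0.0292.

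Serpinb9 (ENSRNOG00000033772, chromosome 17) encodes the intracellular inhibitor of granzyme B, which shields cytotoxic lymphocytes and their neighbours. Its FPKM were 7.95 in CL5, 7.32 in CL6 and 6.83 in CL7, and 11.7 in FL2, 10.9 in FL5 and 7.85 in FL12. FL2 and FL5 were above all CL rats, while FL12 fell just under CL5. The log2 fold change of 0.44 (SE 0.17, 95% interval 0.05 to 0.82, adjusted p = 0.103) did not pass the test and was positive under all 15 alternatives, from 0.19 to 0.62. Without FL12 the adjusted p was 0.0350 and with scaling to an equal sum 0.0296, within a range of 0.0296 to 0.552 over the alternatives, and the fold change stayed under 2 in each.

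Slpi (ENSRNOG00000046699, chromosome 3), the secretory leukocyte peptidase inhibitor, blocks neutrophil elastase and cathepsin G at mucosal surfaces and is also made by macrophages. It read 4.29 FPKM in CL5, 2.29 in CL6 and 2.12 in CL7, and 5.82 FPKM in FL2, 3.07 in FL5 and 3.14 in FL12. Each group held 1 rat well above its other two, CL5 and FL2, and CL5 exceeded both lower FL rats. The log2 fold change was 0.46 with an SE of 0.33 (95% interval -0.30 to 1.22, adjusted p = 0.346). It was 0.77 without CL5 (adjusted p = 0.142), where the groups no longer overlapped, but 0.17 without FL2 (adjusted p = 0.710), 0.24 with median scaling and 0.08 with quantile normalization. Over 15 alternatives the adjusted p spanned 0.142 to 0.910.

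Markers of leukocytes were read beside Serpinb1a, since the gene is known from myeloid cells. Of 6 macrophage markers, 3 rose in the FL group (Lyz2, Cd68 and Csf1r, the last not without FL5, where its log2 fold change was 0.99, nor with median scaling or quantile normalization), and the list summed to 87.2, 79.5 and 81.8 FPKM in the CL rats and to 162, 177 and 122 FPKM in the FL rats. Its most abundant gene was Clec4f with a mean of 48.6 FPKM. Of 6 neutrophil markers, 4 could be tested and 3 rose (S100a8, S100a9 and Csf3r), and the list summed to 0.25, 0.97 and 1.22 FPKM in the CL rats and 4.83, 2.11 and 4.56 FPKM in the FL rats, with S100a8 the most abundant at a mean of 1.09 FPKM. With all 6 rats the log2 fold change was 2.20 for S100a8, 1.85 for S100a9 and 1.72 for Csf3r. With single rats left out they were 1.55 (without CL5) to 2.59, 1.51 to 2.31 and 1.52 to 1.96, without overlap between the groups, and many calls were lost. S100a8 was not called without any 1 of the 6 rats (adjusted p over 9 alternatives 0.0210 to 0.133), S100a9 not without any but CL7 (0.0235 to 0.200) and Csf3r not without CL7 or FL12 (0.00847 to 0.0945). Quantile normalization lost all 3 calls, the groups of S100a8 and S100a9 then overlapping, and median scaling those of S100a8 and S100a9. S100a9 had a log2 fold change of 1.25 with quantile normalization and 2.53 with scaling to an equal sum. Mpo and Elane, which are transcribed mainly in neutrophil precursors of the bone marrow, were at 0 in all CL rats and at most 0.06 and 0.04 FPKM in the FL rats. Among 7 markers of T and NK lymphocytes, 6 could be tested and limma called 0 of them (0 also at an unadjusted p under 0.05), with sums of 2.59, 2.40 and 2.87 FPKM in the CL and 3.49, 5.43 and 2.39 FPKM in the FL rats, Cd8a the most abundant at a mean of 0.903 FPKM and Gzmb at 0 in 4 of the 6 rats. The part of these cells in the values of Serpinb1a, Serpinb9 and Slpi was not tested.

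Leukocyte proteases, the known targets of several of these inhibitors, had low FPKM in all rats. Of 29 listed proteases of neutrophils, mast cells, cytotoxic lymphocytes, the kallikrein family and liver, 19 had a row and 13 could be tested. Of these, 2 rose and the others were not called, 5 of the 13 having an unadjusted p under 0.05, with a median log2 fold change of 0.22 against 0.29 over all genes. The median was -0.08 without FL2, -0.09 with quantile normalization and 0.93 without FL12, and the count of calls ran from 1 to 4 over 9 alternatives, with 4 under scaling to an equal sum. Prtn3, the gene of proteinase 3, was at 0 in all 6 rats, and Gzmb, the target of Serpinb9, was at 0.01 FPKM in CL7 and 0.06 in FL2 and at 0 in the others. A row near 0 in this table need not mean low expression. Rpl8, the gene of a ribosomal protein, read only 0.07 to 0.26 FPKM, and Col1a2 read 0.01 to 0.18 FPKM where Col1a1 reached 101 FPKM. The same limit holds for Mpo, Elane and Serpina12, and its cause was not tested. Mcpt1, a mast cell chymase, had 0.06, 0.17 and 0.23 FPKM in the CL rats, against 0.74, 2.11 and 2.57 FPKM in the FL rats (log2 fold change 2.81, SE 0.49, adjusted p = 0.00966; 3.44 with scaling to an equal sum). St14, the membrane protease matriptase, rose by a log2 fold change of 1.57 (SE 0.33, adjusted p = 0.0167), a call that was lost with quantile normalization and without CL6, CL7, FL5 or FL12 (adjusted p over 9 alternatives 0.00501 to 0.0726). The other genes with an unadjusted p under 0.05, named after their values were seen, were the mast cell proteases Cma1 (log2 fold change 1.35, adjusted p = 0.0720, range 0.0440 to 0.315) and Mcpt2 (1.16, adjusted p = 0.0532, range 0.0249 to 0.424), both called higher only with scaling to an equal sum, at 2.17 and 1.48, and Tmprss6, which was lower (-0.27, adjusted p = 0.141). The most abundant protease was Klkb1, plasma prekallikrein, with a mean of 123 FPKM, which was not called.

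The genes whose values over the 6 rats ran most like those of Serpinb1a, Serpina4 and Slpi, the 3 members with the largest absolute log2 fold changes, were found by the root mean square distance between log2(FPKM + 0.1) profiles, each centred on its own mean. For Serpinb1a they included Capg (distance 0.114) and Gpr183 (0.124), and they were for Serpina4 Pim2 (0.0788), Slc39a8 (0.113) and Lgalsl (0.131), and for Slpi the low-level rows Rpl8 (0.124), Adamdec1 (0.131) and Mrpl30 (0.140). Capg, an actin-capping protein of macrophages, was at 1.64, 2.51 and 2.24 FPKM in the CL rats, against 7.74, 11.7 and 8.29 FPKM in the FL rats. As in Serpinb1a, FL5 was the highest and CL5 the lowest of the 6 rats. Slc39a8, a zinc and manganese transporter, was at 14.3, 14.9 and 14.8 FPKM in the CL rats, against 7.18, 9.16 and 8.45 FPKM in the FL rats, with FL2 the lowest as in Serpina4.

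The promoters of both called members are shown because they belong to the genes that moved. In the set of RefSeq (GRCr8) promoters used here, 8 of the 9 names had an entry. No entry was found under the name Slpi, and whether one exists under another name was not checked. The 250 bases before the start of Serpina4 (chr6:128764532-128764781, + strand) and of Serpinb1a (chr17:31799196-31799445, + strand) follow, 5′ to 3′, with motif matches in capitals.
Serpina4: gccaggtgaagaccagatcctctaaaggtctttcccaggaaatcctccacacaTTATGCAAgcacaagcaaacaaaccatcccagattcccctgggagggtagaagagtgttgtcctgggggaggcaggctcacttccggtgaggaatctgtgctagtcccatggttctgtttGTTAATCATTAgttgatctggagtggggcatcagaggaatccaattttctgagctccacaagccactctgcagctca
Serpinb1a: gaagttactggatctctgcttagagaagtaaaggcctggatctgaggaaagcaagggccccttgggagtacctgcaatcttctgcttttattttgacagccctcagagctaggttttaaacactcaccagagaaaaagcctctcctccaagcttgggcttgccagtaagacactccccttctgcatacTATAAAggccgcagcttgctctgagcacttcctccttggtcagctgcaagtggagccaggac
The capitals in Serpina4 mark, first, a match to the C/EBP letters TTGCNNAA on the opposite strand, 197 to 190 bases before the start, and then a match to the HNF1 letters (GTTAAT, any base, ATTA), 77 to 67 bases before the start. The capitals in Serpinb1a mark a TATA match (TATAAA), 62 to 57 bases before the start. Motifs were picked with the sequences in view and searched on both strands in the 250 bases before each start. Among 33469 rat promoters, 0.105% held the HNF1 letters, 9.22% those of C/EBP and 12.9% those of TATA. Further letters searched were those of STAT (TTCNNNGAA, 7.67% of promoters), found in Serpina11 and Serpina3n, and of IRF (GAAA, any 2 bases, GAAA; 3.41%), found in Serpinb9. The C/EBP letters were also present in Serpina12. Serpina4 was the only member with the HNF1 letters and Serpinb1a the only one with TATA. A match describes the letters in this window and is neither a site of binding nor a cause.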

How the data were processed

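Per the labels and the paper, reads were trimmed (FASTX-Toolkit) and aligned (TopHat2), and FPKM were made by the authors from reads that mapped to 1 place, with 1 column per rat. GRCH38 is named as the genome in the paper, but the gene identifiers are rat Ensembl ones. The annotation release is not given in the sources used here. For their own calls the authors used edgeR on read counts, and no counts were used here. A further 2 columns of values match no sample and were left out. Groups came from the sample labels. Between any pair of rats, 0.866% to 2.54% of genes had the same value above 0.

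From the deposited FPKM, log2(FPKM + 0.1) was compared between 3 FL and 3 CL rats with limma 3.58.1 (R 4.3.3), its prior variance depending on the mean level. A gene entered the fit when its mean reached 0.1 FPKM (14864 genes), means being rounded first so that a mean of exactly 0.1 was kept. Adjusted p-values for genes are from this fit, by Benjamini-Hochberg over all genes tested, and called genes also differed at least 2-fold. Values with ± are means and SD. Ratios within a rat were tested with scipy 1.17.1 by exact two-sided permutation. Only the main limma fit was tested on simulated data. Values near 0.1 FPKM rest on few reads.

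The members and lists were chosen with earlier results of these data known. Genes named were all members, in each list of other genes the called genes (up to 4 per direction) and the most abundant gene, and the 3 genes most like each of the 3 members with the largest log2 fold changes. Others are stated to have been chosen after their values were seen, as were the markers and proteases at or near 0 and the markers called in only some alternatives. Some genes that this rule names are not reported here. The settings varied were the pseudocount (1 or 0.01), the filter (none, or a mean of at least 1 FPKM), the scaling between rats (median scaling, quantile normalization or scaling to an equal sum), the prior of limma (no trend, or robust), the fold limit (none) and the rats, each of which was left out in turn. Genes outside the members were followed under the 3 scalings and with each of the 6 rats left out, which makes 9 alternatives. Clade A neighbours and promoters came from RefSeq (GRCr8).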

Additional observations from a re-analysis of the deposited data

How the results depend on the processing

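Serpinb1a was the 1 member upregulated under all alternatives run. The count of downregulated members, 1 (Serpina4), became 0 with quantile normalization and 0 with scaling to an equal sum, and was 0 (without FL2) to 1 with single rats left out. The direction of Serpina4 held throughout. Members without overlap between the groups numbered 2, but 3 with median scaling (Serpinf1 added, lower), 4 with scaling to an equal sum, and 2 to 4 with single rats left out (4 without CL5 and 4 without FL5). The share of all genes tested without overlap is given only for unscaled FPKM with every rat kept, at 40.5%. Scaling or leaving out a rat can change that share, so the higher counts are not read as a result about the members. The log2 fold changes near 0 changed sign. That of Serpina1 was -0.20 with median scaling and -0.032 to 0.13 with single rats left out, that of Serpina11 was 0.16 with scaling to an equal sum and -0.23 to 0.23 with single rats left out, and that of Serpinf1 was 0.082 with scaling to an equal sum. Serpinb9 and Slpi kept their positive sign under 15 alternatives each. Over all genes tested, 1381 were higher and 139 lower. These counts were 462 and 72 with a pseudocount of 1, 846 and 78 without a filter, 854 and 94 at a mean of at least 1 FPKM, 826 and 181 with median scaling, 453 and 231 with quantile normalization, and 2061 and 123 with scaling to an equal sum. With single rats left out they ranged from 682 (without FL5) to 1833 (without FL2) and from 80 to 159. Fewer rats in a fit lower its power, and otherwise the cause was not tested. No paired analysis was possible because the groups share only the number 5, which names different animals. Read counts were not used here, so depth limits the low genes Serpina12, Serpinb1a and Slpi to an unknown extent.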

Other observations

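Inhibitors of other families held 2 called genes. Of 28 listed genes of Kunitz, Kazal, whey acidic protein domain and alpha-macroglobulin inhibitors, 17 had a row and 14 could be tested. Both called genes rose, and the median log2 fold change was 0.08 against 0.29 over all genes. This median lay between -0.15 (median scaling) and 0.32 (without FL5) over 9 alternatives, and the count of genes that rose between 1 and 3 (3 without FL2 and 3 with scaling to an equal sum). At an unadjusted p under 0.05, 5 of the 14 were higher and 4 lower in the FL group. The uncalled ones were named after their values were seen. Higher were Wfdc3 (log2 fold change 0.88, adjusted p = 0.0559), Spint1 (1.11, adjusted p = 0.134) and Spink3 (1.75, adjusted p = 0.122, range 0.0555 to 0.297), and the groups overlapped only in Spint1. Wfdc3 was called with scaling to an equal sum (log2 fold change 1.16, adjusted p = 0.0394, range 0.0394 to 0.582) and Spint1 without FL2 (log2 fold change 1.54, adjusted p = 0.0316, range 0.0316 to 0.453). Lower were Mug2 (log2 fold change -0.73, adjusted p = 0.0174, under 2-fold), Wfdc2 (-0.74, adjusted p = 0.117), Wfdc1 (-0.68, adjusted p = 0.0807) and Spint2 (-0.33, adjusted p = 0.0795), and the groups overlapped only in Wfdc2. Wfdc2 was called lower without FL2 (log2 fold change -1.04, adjusted p = 0.0297, range 0.0297 to 0.309) and Wfdc1 with quantile normalization (log2 fold change -1.17, adjusted p = 0.0394, range 0.0394 to 0.214). A2m, the gene of alpha-2-macroglobulin, an acute-phase protein of the rat, had 0.56, 0.59 and 0.59 FPKM in the CL rats, against 10.5, 2.46 and 3.86 FPKM in the FL rats (log2 fold change 2.81, SE 0.46, adjusted p = 0.00789). Wfdc21, of the same domain family as Slpi, had 16.2, 23.8 and 31.5 FPKM in the CL rats, against 578, 50.4 and 114 FPKM in the FL rats. Its log2 fold change of 2.69 (SE 0.77, adjusted p = 0.0453) was 1.72 without FL2 and 3.47 without FL5, where the call held. It lost the call with median scaling, with quantile normalization and without CL5, CL6, CL7 or FL12, with an adjusted p of 0.0184 to 0.131 over 9 alternatives. FL2 was the highest FL rat in A2m, Wfdc21, Spink3 and Slpi, but the lowest in Wfdc3 and Spint1. This comparison was made after the values were seen. The most abundant gene of the list was Pzp, with a mean of 1420.1 FPKM and no call.

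Of 9 serpins of coagulation and fibrinolysis, 7 could be tested. The median log2 fold change of the 7 was 0.15 (-0.06 with median scaling), and Serpinc1, antithrombin, was the most abundant with a mean of 429.5 FPKM. Among 13 other serpins, 9 could be tested and 1 rose, with a median of 0.51 and Serpina3c the most abundant at a mean of 2113 FPKM. Without FL2 and with scaling to an equal sum, 3 of the 9 rose, Serpinh1 (log2 fold change 1.31, adjusted p = 0.00612 without FL2) and Serpinb6 (log2 fold change 1.03, adjusted p = 0.0278 with scaling to an equal sum) being the others. With all 6 rats Serpinh1 was just under 2-fold (adjusted p = 0.0385) and Serpinb6 had a log2 fold change of 0.83 (adjusted p = 0.0503), and over 9 alternatives the adjusted p of Serpinh1 was 0.00612 to 0.118 and that of Serpinb6 0.0278 to 0.248. The gene that rose with all 6 rats was Serpina7, thyroxine-binding globulin, with 1.81, 4.90 and 2.76 FPKM in the CL rats and 31.5, 15.7 and 13.2 FPKM in the FL rats (log2 fold change 2.64, SE 0.41, adjusted p = 0.00655), a call made under all 9 alternatives. Of 15 genes of acute-phase induction, 13 could be tested and 2 rose (1 without FL2), with a median of 0.40 (0.14 without FL2). Osmr, the oncostatin M receptor, had 1.68, 2.20 and 1.40 FPKM in the CL rats, against 7.82, 5.47 and 8.45 FPKM in the FL rats (log2 fold change 1.98, SE 0.22, adjusted p = 0.00307). Il1r1 rose by 1.02 (SE 0.23, adjusted p = 0.0228, range 0.00979 to 0.0854), which was lost with median scaling, with quantile normalization and without CL6, CL7, FL2 or FL12. Il6st was the most abundant of this list with a mean of 95.6 FPKM. All 4 receptors and partners that clear serpin complexes were tested, and 1 rose, Vldlr (log2 fold change 1.68, SE 0.35, adjusted p = 0.0164, range 0.00556 to 0.0705), a call lost with quantile normalization and without CL5, CL7, FL5 or FL12. Their median was 0.55, and Lrp1 was the most abundant with a mean of 89.9 FPKM.

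Further markers of liver cells were read by their counts. Limma called 0 of the 7 hepatocyte markers, and 2 had an unadjusted p under 0.05, Apoa1 and Tat, which were higher in the FL group. In unscaled FPKM, 4 of the 7 were lower without overlap between the groups (Alb, Ass1, Ttr and Hnf4a) and 1 was higher (Apoa1). With scaling to an equal sum, the groups of Alb, Ass1 and Hnf4a overlapped. These markers were named after their values were seen. Tat was called higher only without FL2 (log2 fold change 1.09, adjusted p = 0.0250). Of 6 tested markers of stellate cells or myofibroblasts, 4 rose (Col1a1, Col3a1, Des and Pdgfrb), with sums of 66.3, 70.6 and 64.9 FPKM in the CL rats and 179, 486 and 450.1 FPKM in the FL rats. Acta2, of the same list, was called only without FL2 (log2 fold change 2.07, adjusted p = 0.00662) and with scaling to an equal sum. Of 4 mast cell markers 1 rose, Cpa3 (log2 fold change 1.04, adjusted p = 0.0200), a call lost with median scaling, with quantile normalization (log2 fold change 0.44) and without CL5, CL7, FL5 or FL12. In the fit over 6 rats, limma called 0 of 5 cholangiocyte, 3 endothelial and 3 mesothelial markers (1, 1 and 0 had an unadjusted p under 0.05). Without FL2, however, and with scaling to an equal sum, Cftr was called higher (log2 fold change 1.85 and adjusted p = 0.0313 without FL2), and without FL12 Msln was called lower (log2 fold change -1.67, adjusted p = 0.0199). The 1 tested adipocyte marker, Adipoq, was not called. Cela1, a serine protease of the elastase family listed as a pancreatic acinar marker, had 2.64, 2.74 and 2.24 FPKM in the CL rats, against 0.06, 0.22 and 0.18 FPKM in the FL rats (log2 fold change -3.44, adjusted p = 0.00165), while Cpa1, of the same list, was at 0 in all CL rats and at most 0.04 FPKM in the FL rats. The part of any of these cells in the values of the members was not tested.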
